A study of Mus musculus with 15 samples.

Results

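The epithelial sodium channel (ENaC) and its regulators were followed here through 6 genes in the epidermis and tongue of newborn mice. The genes were chosen by name and role, without a cut-off on measured values: the channel subunits Scnn1a, Scnn1b and Scnn1g, the ubiquitin ligase Nedd4l, the kinase Sgk1 and the mineralocorticoid receptor Nr3c2. All 6 were found among the 23420 mouse genes counted, and all 6 passed the filter on low counts in every comparison. They were selected on earlier views of these data, so their levels are a description and no test over the 6 genes together was made.

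The mice were 1 day old, and the labels give all of them 1 strain name, that of the Tmprss11 cluster line. Knockout animals had a genotype of -/- for the 7 HAT/DESC serine protease genes of that cluster, Tmprss11a to Tmprss11g, and the animals they were set against were wild type, with no Cre or other tissue restriction given. The 4 groups were knockout epidermis (4 libraries), wild-type epidermis (3), knockout tongue (4) and wild-type tongue (4). By the A-numbers in the labels, read here as animals, 9 animals gave the 15 libraries, and 6 of them (4 knockout, 2 wild-type) gave both tissues. The A-numbers fall in 3 ranges, called A32x, A34x and A38x below, and what a range stands for (litters, days) is not given. RNA was read from both ends with 37 bases each. Epidermis had been peeled off after 5 minutes at 60 °C in 5 mM EDTA, while tongue carried muscle and connective tissue along with its epithelium.

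ENaC is the pore through which sodium enters many epithelial cells from the outside, and it is built from an α, a β and a γ subunit (Scnn1a, Scnn1b, Scnn1g). Serine proteases such as furin and prostasin (Prss8) raise its open probability by cutting the extracellular loops of the α and γ subunits. Nedd4l (Nedd4-2) binds PY motifs in the subunit tails and tags the channel for removal from the surface. Sgk1 phosphorylates Nedd4l and so keeps channels at the surface, and Sgk1 is itself switched on by corticosteroids acting through the mineralocorticoid receptor (Nr3c2) and the glucocorticoid receptor (Nr3c1). In skin the channel is known for its part in the water barrier of newborn mice, and in tongue it carries salt taste.

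Counted reads ran from 10117819 to 17819195 per library. Epidermis WT 1 stood apart, with 44.6% of its reads on the 2 mitochondrial ribosomal RNAs where the other epidermis libraries had 20.1% to 23.8%. Y-linked reads outnumbered those of Xist in 2 of 4 knockout epidermis libraries, in 3 of 3 from wild-type epidermis and in 2 of 4 of either tongue group. The 6 targeted genes analysed together had 170.7 ± 59.1 CPM in knockout epidermis and 265.6 ± 39.1 CPM in wild-type epidermis (SD, n = 4 and 3). In tongue they had 140.8 ± 7.2 CPM in knockouts and 369.8 ± 16.0 CPM in wild type (n = 4 each), so reads over these genes remained in the animals labelled knockout. CPM is the count of a gene set against a library size scaled with TMM factors over all 15 libraries. Epidermis held its defining markers, with 5 suprabasal markers (Krt1, Krt10, Lor, Flg2, Ivl) summing to 28908 to 53645 CPM against 98.5 to 202 CPM in tongue. Tongue held oral keratins and related genes (Krt4, Krt13, Krt6a, Rptn, Krt36) at 7603 to 12184 CPM against 297 to 1267 CPM in epidermis.

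The promoters of 3 members are shown because Sgk1 and the β and γ subunits are the genes whose knockout and wild-type epidermis libraries did not overlap. Sequences are from RefSeq on GRCm38.p6, on the plus strand, 5′ to 3′, and hold the 250 bases before a transcription start. The RefSeq table held windows for 4 of the 6 members: 1 each for Scnn1b, Scnn1g and Nr3c2 and 6 for Sgk1. In the Sgk1 window at chr10:21993640-21993889, between alternative first exons of the gene, capitals mark a glucocorticoid response palindrome, made of the half-sites AGAACA and TGTTCT with 3 bases between them.
Sgk1: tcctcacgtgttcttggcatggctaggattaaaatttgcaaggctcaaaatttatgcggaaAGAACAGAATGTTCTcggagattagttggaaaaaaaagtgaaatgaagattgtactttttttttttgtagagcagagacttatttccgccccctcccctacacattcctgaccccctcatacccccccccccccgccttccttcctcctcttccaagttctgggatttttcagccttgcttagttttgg
In the windows of the β subunit (chr7:121864788-121865037) and the γ subunit (chr7:121734229-121734478), capitals mark the GC box GGGCGG on either strand.
Scnn1b: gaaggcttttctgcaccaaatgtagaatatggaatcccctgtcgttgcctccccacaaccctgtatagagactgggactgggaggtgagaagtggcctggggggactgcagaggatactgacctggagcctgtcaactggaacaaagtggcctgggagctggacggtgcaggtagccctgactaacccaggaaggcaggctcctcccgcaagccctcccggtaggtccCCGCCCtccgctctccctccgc
Scnn1g: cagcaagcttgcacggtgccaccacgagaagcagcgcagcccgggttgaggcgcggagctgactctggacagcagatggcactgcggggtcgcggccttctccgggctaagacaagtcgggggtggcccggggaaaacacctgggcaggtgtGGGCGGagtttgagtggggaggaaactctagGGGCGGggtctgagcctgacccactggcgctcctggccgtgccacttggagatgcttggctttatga
The palindrome began 189 bases before the start of that Sgk1 transcript, and the search used both strands, which read alike for a palindrome. It was found in 3 of 32851 promoter windows of this length, or 0.00913%. A single half-site, which the palindrome contains, was present in 16.1% of windows, among them 3 of the 6 Sgk1 windows and none of the Scnn1b, Scnn1g and Nr3c2 windows. The GC box was present in 32.7% of windows and began 22 bases before the start in Scnn1b, and 98 and 67 bases before it in Scnn1g. It was not particular to these 2 genes: the Nr3c2 window held 3. The Sgk1 window shown held 1, unmarked, 104 bases before the start, and another Sgk1 window held 4. The motifs were chosen with the levels known, the matches describe letters only, and binding was not measured.

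The β subunit, Scnn1b, was the channel gene that separated the tissues most clearly. The gene lies at chr7:121865038-121918514 on GRCm38 and follows Scnn1g (chr7:121734479-121768475) on the same strand after 96.6 kb. In knockout epidermis it had 26.6, 33.8, 46.1 and 31.0 CPM in KO 1 to KO 4, against 15.3, 20.2 and 23.3 CPM in wild-type epidermis. In tongue it had 9.22, 4.93, 6.37 and 5.65 CPM in knockouts and 7.85, 4.77, 4.03 and 4.77 CPM in wild type. All epidermis libraries lay above all tongue libraries, and within epidermis all 4 knockout libraries lay above all 3 wild-type ones. Differences were tested on the counts with edgeR's quasi-likelihood test, as log2 fold changes (a value of 1 means 2 times the level), and a gene passed at a p under 0.05 after Benjamini-Hochberg adjustment over all genes tested. Epidermis was higher than tongue in wild type by a log2 fold change of 1.90 (SE 0.25, edgeR adjusted p = 0.000149) and in knockouts by 2.42 (SE 0.24, edgeR adjusted p = 4.3e-06).

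**Figure D1:**
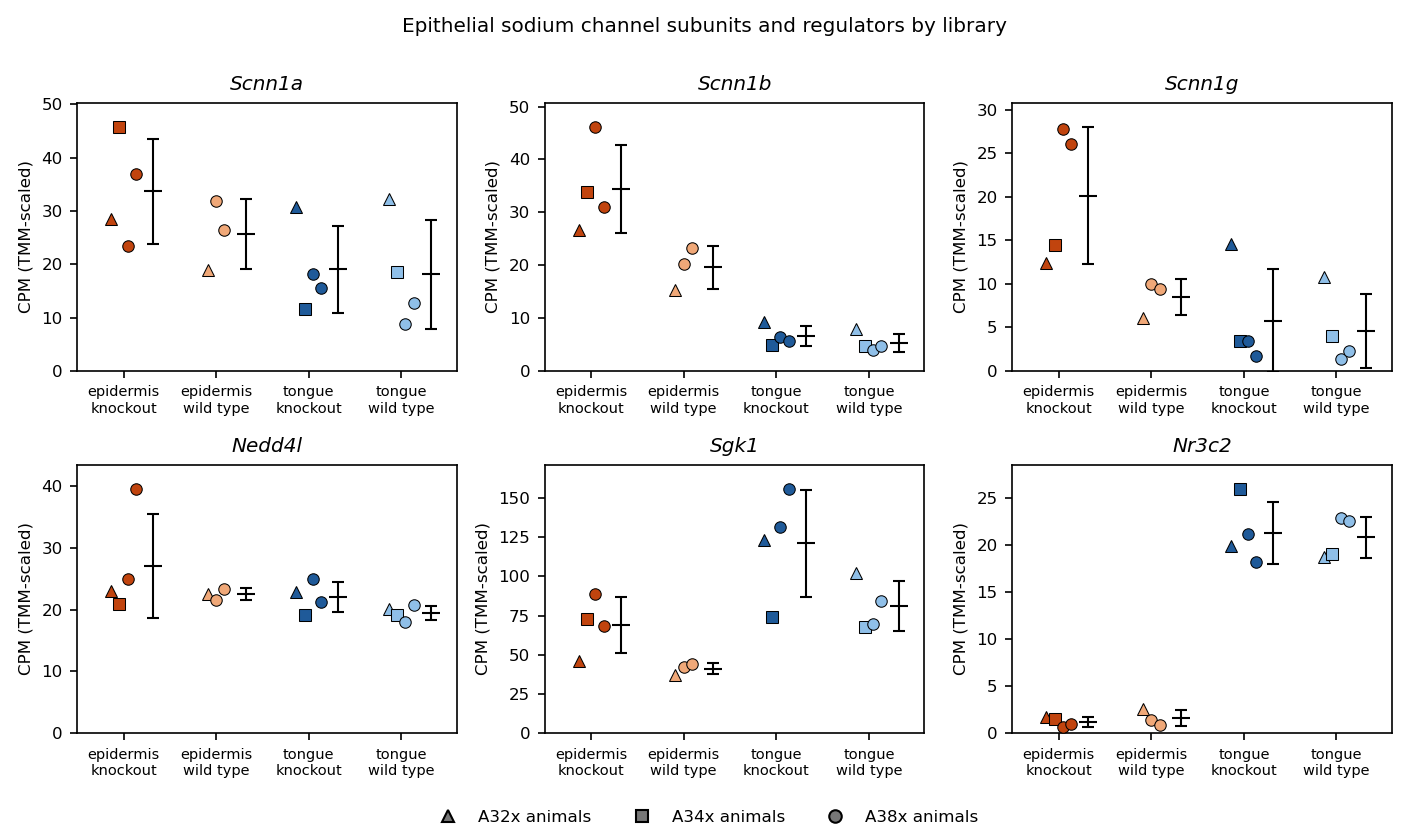
CPM (TMM-scaled, vertical axis from 0) of the 6 genes in each library, by tissue and genotype, with the shape of a point giving the A-number range of the animal. The dash and bars beside each group are the mean and SD (n = 4, 3, 4 and 4), with bars ending at 0 where they would pass it, and in epidermis the knockout points of Scnn1b, Scnn1g and Sgk1 lie above all wild-type points.

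The γ subunit, Scnn1g, varied widely among libraries. Knockout epidermis held 12.4, 14.4, 27.7 and 26.0 CPM, and wild-type epidermis held 6.08, 9.95 and 9.39 CPM. Knockout tongue held 14.5, 3.43, 3.39 and 1.72 CPM, and wild-type tongue 10.8, 3.96, 1.42 and 2.26 CPM. The 4 knockout epidermis libraries again lay above the 3 wild-type ones, with KO 3 and KO 4 well above KO 1 and KO 2. In tongue the 2 genotypes overlapped fully, and 1 library of each stood far above the rest. Epidermis over tongue was 1.84 (SE 0.59, edgeR adjusted p = 0.0192) on the log2 scale in knockouts and 0.92 (SE 0.58, edgeR adjusted p = 0.194) in wild type, so that only the first passed, and the change of this difference with genotype did not pass (log2 0.90, 95% interval -1.15 to 2.94, edgeR adjusted p = 1).

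The α subunit, Scnn1a (chr6:125320659-125344943), differed least between tissues of the channel genes. Its levels were 28.5, 45.7, 23.4 and 37.0 CPM in knockout epidermis and 18.9, 31.9 and 26.4 CPM in wild-type epidermis. In tongue they were 30.7, 11.6, 18.1 and 15.6 CPM in knockouts and 32.3, 18.6, 8.74 and 12.8 CPM in wild type. The ranges of all 4 groups overlapped. In the order of group means, knockout epidermis at 33.7 ± 9.81 CPM was followed by wild-type epidermis at 25.7 ± 6.51, knockout tongue at 19.0 ± 8.25 and wild-type tongue at 18.1 ± 10.3 (SD), and no 2 neighbours in that order differed by more than the larger of their SDs. Epidermis over tongue passed in knockouts (log2 fold change 0.84, SE 0.29, edgeR adjusted p = 0.0247) and not in wild type (0.54, SE 0.39, edgeR adjusted p = 0.250).

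For Scnn1b and Scnn1g the order of group means was the same as for Scnn1a. Scnn1b averaged 34.4 ± 8.35 CPM in knockout epidermis, 19.6 ± 4.03 in wild-type epidermis, 6.54 ± 1.88 in knockout tongue and 5.36 ± 1.70 in wild-type tongue. Scnn1g averaged 20.1 ± 7.85 CPM in knockout epidermis, 8.47 ± 2.10 in wild-type epidermis, 5.76 ± 5.89 in knockout tongue and 4.62 ± 4.27 in wild-type tongue. The 2 tongue groups of each gene differed by less than their SDs.

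Per kilobase of exon the subunits were present in unequal amounts, and the balance differed between the tissues. In knockout epidermis Scnn1b made up 46.6 ± 5.86% of the summed CPM per kb of the 3 subunits, Scnn1a 29.8 ± 8.90% and Scnn1g 23.6 ± 6.40% (SD, n = 4). In wild-type epidermis these shares were 45.3 ± 3.79% for Scnn1b, 37.6 ± 3.29% for Scnn1a and 17.1 ± 0.711% for Scnn1g (n = 3). In tongue Scnn1a led, with 52.2 ± 5.35% in knockouts and 54.8 ± 3.14% in wild type (n = 4 each), while Scnn1b held 29.4 ± 4.96% in knockouts and 28.4 ± 7.55% in wild type, and Scnn1g 18.4 ± 9.35% in knockouts and 16.8 ± 6.03% in wild type. The share of Scnn1a lay between 17.4% and 41.2% in the epidermis libraries and between 47.1% and 58.9% in the tongue libraries, without overlap. With the coding length of the longest transcript in place of all exons, Scnn1a rather than Scnn1b held the largest mean share in wild-type epidermis, 45.5 ± 3.41% against 38.4 ± 3.67%, while in knockout epidermis Scnn1b at 40.5 ± 6.17% stayed above Scnn1a at 36.7 ± 10.2%. The summed level was 27.9 ± 4.80 CPM per kb in knockout epidermis and 16.5 ± 3.54 in wild-type epidermis, and 9.02 ± 4.60 in knockout tongue and 7.96 ± 4.54 in wild-type tongue.

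**Figure D2:**
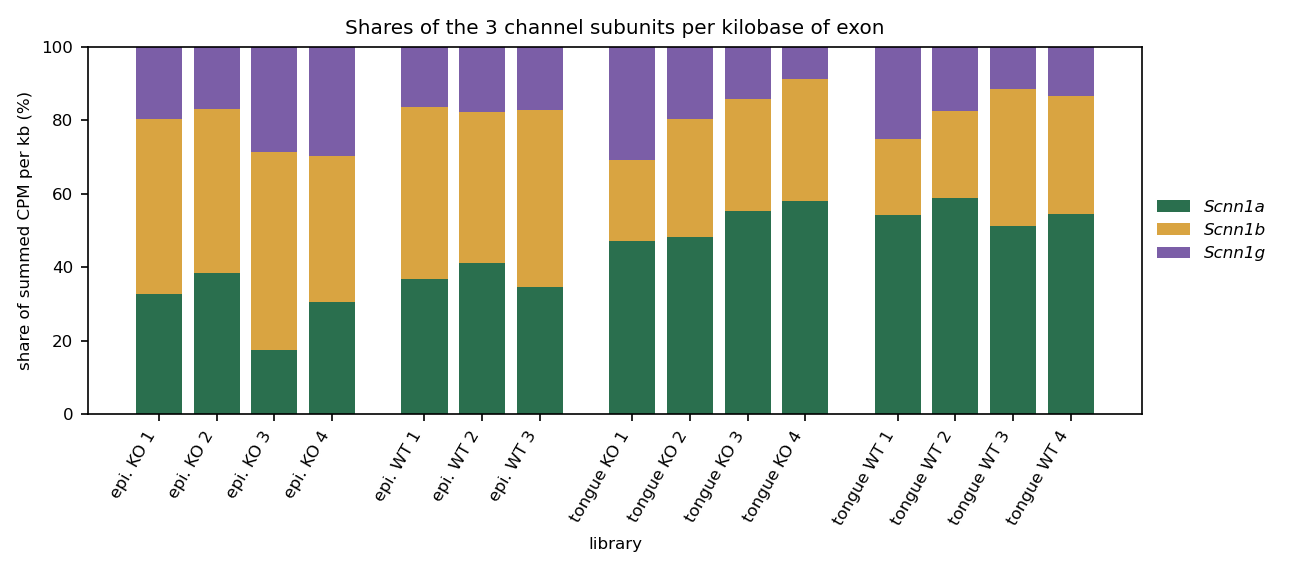
Share of each subunit in the summed CPM per kilobase of exon of Scnn1a, Scnn1b and Scnn1g (percent, vertical axis from 0 to 100), with 1 bar per library. Scnn1a held 17.4% to 41.2% in the 7 epidermis libraries and 47.1% to 58.9% in the 8 tongue libraries.

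Tongue is a mixture of epithelium, muscle and connective tissue in shares that were not measured. In bulk tissue fewer cells of a type and less RNA per cell cannot be told apart. The 6 epithelium markers (Cdh1, Epcam, Krt5, Krt14, Trp63, Cldn1) summed to 3298 to 6312 CPM in epidermis and 625 to 876 CPM in tongue. The 6 skeletal muscle markers summed to 78.7 to 660 CPM in epidermis and 21567 to 45309 CPM in tongue. Set against the sum of these 6 markers, the order of the tissue means turned round for all 3 subunits, for Scnn1g in knockouts through tongue KO 1 alone. Krt5 and Krt14 made up most of that sum in epidermis, at 2592 and 2325 of 6204 CPM in epidermis WT 2. Trp63 differed less between tissues, at 202 to 416 CPM in epidermis and 80.7 to 127 CPM in tongue. The turn may thus depend on the markers chosen, above all for Scnn1b, whose tissue means lay closest. Scnn1a differed less between tissues than Trp63 did, at means of 25.7 CPM in wild-type epidermis and 18.1 CPM in wild-type tongue. No other set of markers was tried. Scnn1a stood at 6.28 ± 1.46 per 1000 CPM of markers in knockout epidermis and 24.9 ± 10.7 in knockout tongue, and at 5.36 ± 0.323 in wild-type epidermis and 22.2 ± 12.9 in wild-type tongue. Scnn1g stood at 3.86 ± 1.70 in knockout epidermis and 7.36 ± 7.52 in knockout tongue, and at 1.77 ± 0.142 in wild-type epidermis and 5.67 ± 5.37 in wild-type tongue. Without tongue KO 1 the mean in knockout tongue was 3.62 ± 0.753 (n = 3), below knockout epidermis, and without tongue WT 1 that in wild-type tongue was 3.06 ± 1.47, still above wild-type epidermis. Scnn1b stood at 6.48 ± 1.62 in knockout epidermis and 8.56 ± 2.51 in knockout tongue, and at 4.17 ± 0.788 in wild-type epidermis and 6.57 ± 2.16 in wild-type tongue. For Scnn1a in both genotypes and Scnn1b in wild type the difference was larger than either SD, and for the others it was not. The part of tissue makeup in the differences between epidermis and tongue was not tested.

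Within tongue the 3 subunits moved together from library to library, and the libraries at the top were those of the A32x animals in both genotypes. These 2 libraries, tongue KO 1 and tongue WT 1, held 30.7 and 32.3 CPM of Scnn1a, where the other 6 held 8.74 to 18.6. They held 14.5 and 10.8 CPM of Scnn1g, where the other 6 held 1.42 to 3.96. Across the 8 tongue libraries log2(CPM + 1) of Scnn1a correlated with that of Scnn1b at r = 0.92 and with that of Scnn1g at r = 0.90, a description of points that share 3 A-number ranges. Muc5b, a salivary gland mucin, was also highest there, at 17.2 CPM in KO 1 and 7.47 CPM in WT 1 against 0.747 to 3.36 CPM in the others. The 4 salivary markers found in the files summed to 20.4 and 9.96 CPM in these 2 libraries and to 2.17 to 5.07 CPM in the rest, with Lpo at 0 in all tongue libraries and Bpifa1 at 0.230 CPM or less. Muscle markers were lowest in the same 2 libraries, at 24607 and 21567 CPM against 29060 to 45309 CPM. Endothelial markers summed to 406 and 357 CPM there against 265 to 315 CPM, and suprabasal epidermal markers to 197 and 202 CPM against 98.5 to 172 CPM. The part of salivary gland, muscle, endothelium or suprabasal cells in the subunit levels was not tested.

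**Figure D3:**
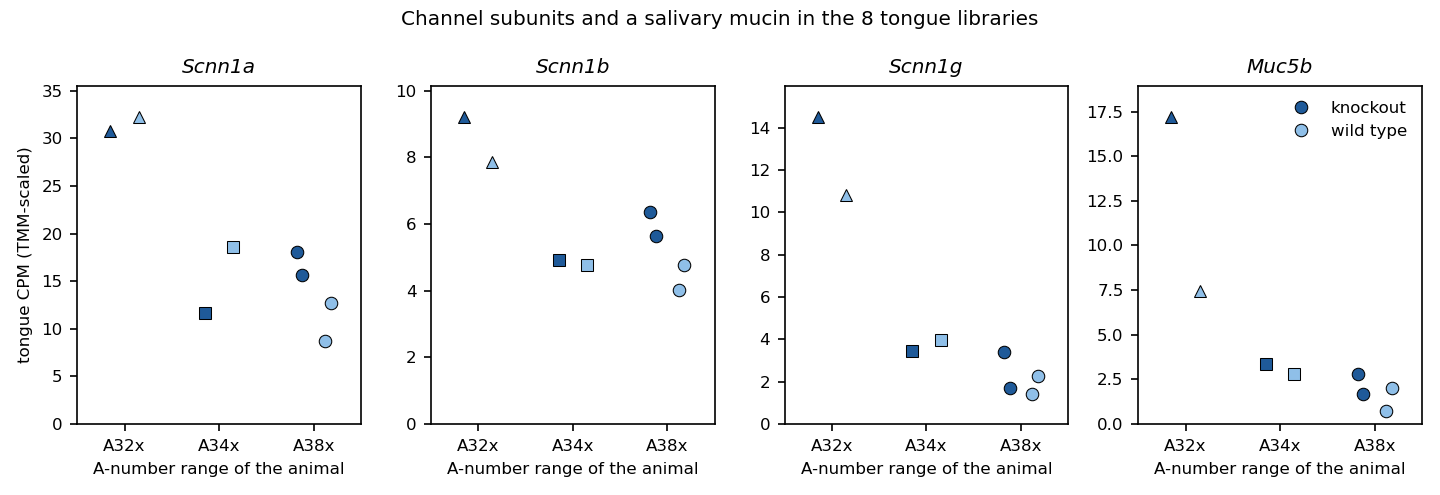
CPM (TMM-scaled, vertical axes from 0) of the 3 channel subunits and of Muc5b in the 8 tongue libraries, by the A-number range of the animal, with knockouts left of wild type. Both A32x libraries lie above the other 6 in every panel, for Scnn1g at 14.5 and 10.8 CPM against 1.42 to 3.96.

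In wild type the call between tissues for Scnn1a and Scnn1g rested on this split. Among the A38x libraries alone, which are 2 per tissue from the same 2 animals, Scnn1a was higher in epidermis by 1.43 on the log2 scale (SE 0.19, edgeR adjusted p = 8.13e-06) and Scnn1g by 2.38 (SE 0.26, edgeR adjusted p = 6.9e-07). In that subset 69.6% of the genes tested passed. Without tongue WT 1 both genes passed as well, at log2 fold changes of 0.96 for Scnn1a and 1.76 for Scnn1g. In knockouts the call for Scnn1a was lost on leaving out any 1 of 5 libraries (epidermis KO 2 or KO 4, tongue KO 2, KO 3 or KO 4), and that for Scnn1g on leaving out epidermis KO 3, tongue KO 2 or tongue KO 3. Without the knockout animals A386 and A387 the log2 fold changes in knockouts were 0.79 for Scnn1a, 0.57 for Scnn1g and -0.75 for Sgk1, and none of these 3 passed (edgeR adjusted p = 0.203, 0.462 and 0.0989).

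Nedd4l (chr18:64887705-65217828), the ligase that removes the channel, varied little in CPM. It had 23.0, 20.9, 25.0 and 39.5 CPM in knockout epidermis and 22.6, 21.5 and 23.4 CPM in wild-type epidermis. In tongue it had 22.9, 19.2, 25.0 and 21.2 CPM in knockouts and 20.1, 19.1, 18.0 and 20.7 CPM in wild type. Apart from epidermis KO 4 at 39.5 CPM, all libraries lay between 18.0 and 25.0 CPM. It passed in no comparison, and the 95% interval of the log2 difference between wild-type epidermis and wild-type tongue was -0.06 to 0.53. Per 1000 CPM of epithelium markers Nedd4l was lower in epidermis, at 5.23 ± 2.07 in knockouts and 4.99 ± 1.72 in wild type. In tongue it stood at 28.9 ± 4.44 in knockouts and 23.8 ± 1.02 in wild type. The part of tissue makeup in its levels was not tested. Its relative Nedd4, a ligase of the same family, differed in level between tissues, at 411 ± 118 CPM in wild-type epidermis and 1290 ± 127 CPM in wild-type tongue (log2 fold change -1.63, edgeR adjusted p = 0.00034).

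Sgk1, the kinase that holds Nedd4l in check, was lower in epidermis than in tongue. The gene spans chr10:21882184-21999903 with its alternative first exons, and per kilobase of exon it averaged 14.1 CPM in knockout epidermis, 8.4 in wild-type epidermis, 24.7 in knockout tongue and 16.5 in wild-type tongue. It had 45.7, 72.8, 89.0 and 68.4 CPM in knockout epidermis, against 37.4, 42.1 and 44.0 CPM in wild-type epidermis. In tongue it had 123, 74.0, 132 and 156 CPM in knockouts, against 102, 68.0, 69.5 and 84.4 CPM in wild type. In epidermis every knockout library lay above every wild-type library, the lowest by a narrow margin, and in tongue the genotypes overlapped, with KO 2 among the wild-type values. Group means ran in the order knockout tongue (121 ± 34.3 CPM), wild-type tongue (81.0 ± 15.9), knockout epidermis (69.0 ± 17.9) and wild-type epidermis (41.2 ± 3.44), with wild-type tongue and knockout epidermis within their SDs. Sgk1 was lower in epidermis than in tongue in wild type (log2 difference -0.95, SE 0.17, edgeR adjusted p = 0.0011) and in knockouts (-0.78, SE 0.24, edgeR adjusted p = 0.0143). The second call was lost without the A32x libraries (-0.62, edgeR adjusted p = 0.0633). In the 6 animals that gave both tissues, epidermis minus tongue on the log2 scale was -1.43, -0.02, -0.56 and -1.19 in the 4 knockouts and -0.72 and -0.94 in the 2 wild-type animals.

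Nr3c2 (chr8:76899442-77245012), the mineralocorticoid receptor, showed the largest difference of the 6 genes between tissues. Its level was low in epidermis, with 1.73, 1.49, 0.593 and 0.953 CPM in knockouts and 2.59, 1.33 and 0.872 CPM in wild type, which are 11 to 33 counted reads per library. In tongue it had 20, 26.0, 21.2 and 18.3 CPM in knockouts and 18.8, 19.1, 22.9 and 22.5 CPM in wild type. No epidermis library came near a tongue library, and in both tissues the genotypes overlapped. Epidermis over tongue was -3.78 on the log2 scale in wild type (SE 0.33, edgeR adjusted p = 1.08e-05) and -4.14 in knockouts (SE 0.30, edgeR adjusted p = 2.51e-07). Per kilobase of exon, the glucocorticoid receptor Nr3c1 stood at 13.4 ± 1.03 CPM in knockout epidermis and 13.0 ± 2.43 in wild-type epidermis, where Nr3c2 had 0.184 ± 0.0797 in knockout epidermis and 0.247 ± 0.137 in wild-type epidermis. In tongue Nr3c1 stood at 18.4 ± 1.02 CPM per kb in knockouts and 18.7 ± 1.0 in wild type, and Nr3c2 at 3.3 ± 0.511 in knockouts and 3.22 ± 0.341 in wild type. Hsd11b2, the enzyme that inactivates glucocorticoids in mineralocorticoid target cells, had 0 to 4 reads per epidermis library, and averaged 1.75 ± 0.845 CPM in knockout tongue and 1.09 ± 0.511 CPM in wild-type tongue.

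Across the tissues, 5 of the 6 members passed in knockouts, where 63.8% of the 16398 genes tested passed, and 3 of 6 passed in wild type, where 63.6% of 16577 genes passed. With a background this high, the counts are not read as a result about these genes.

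**Figure D4:**
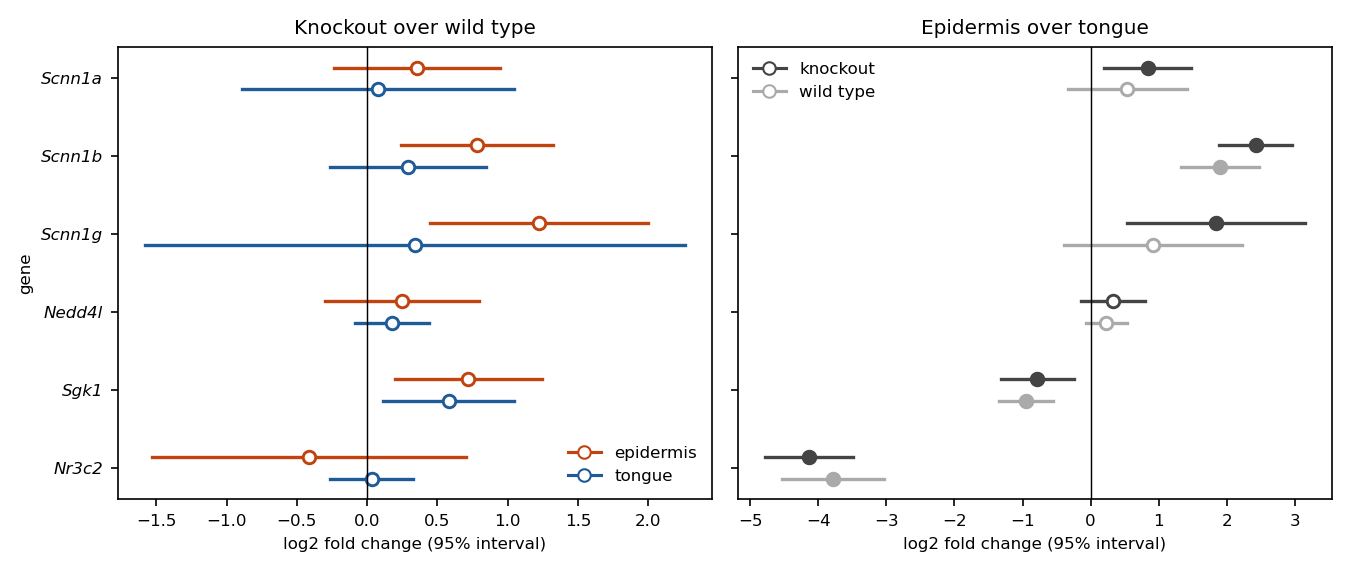
Log2 fold changes of the 6 genes from edgeR with their 95% intervals, at left knockout over wild type in epidermis and tongue, at right epidermis over tongue in knockouts and wild type. Filled points passed an adjusted p of 0.05 over all genes tested: none at left, and at right Scnn1b, Sgk1 and Nr3c2 in both genotypes and Scnn1a and Scnn1g in knockouts.

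Loss of the HAT/DESC proteases was the other question, since serine proteases act on this channel. In epidermis none of the 6 genes passed between knockout and wild type, and neither did any other gene: 0% of the 16073 genes tested by edgeR, with 187 at an unadjusted p under 0.05 and 1 called by DESeq2. No targeted gene passed by edgeR either, though Tmprss11b had 0.332 to 1.15 CPM in knockout and 3.54 to 3.69 CPM in wild-type epidermis. Tmprss11g was not lower, at 11.1 ± 5.77 and 8.27 ± 1.89 CPM. A missing call in epidermis is thus limited information. The log2 fold changes were 1.22 for Scnn1g (95% interval 0.45 to 2.00), 0.78 for Scnn1b (0.24 to 1.32), 0.72 for Sgk1 (0.20 to 1.24), 0.35 for Scnn1a (-0.24 to 0.95), 0.25 for Nedd4l (-0.30 to 0.80) and -0.41 for Nr3c2 (-1.53 to 0.71), each with an edgeR adjusted p of 1. Scnn1g, Scnn1b and Sgk1 were ranked 11, 15 and 19 by p among all genes tested. These 3 were also the members with every knockout library above every wild-type library, which held for 1.26% of all genes tested. Per 1000 CPM of epithelium markers Scnn1b and Scnn1g still did not overlap, while Sgk1 did, at 9.23 to 17.0 in knockout epidermis and 6.79 to 11.3 in wild-type epidermis. The 3 adipocyte markers (Fabp4, Adipoq, Plin1) showed the same split at low levels, summing to 8.91 to 21.9 CPM in knockout epidermis and 5.08 to 8.36 CPM in wild-type epidermis, and their part was not tested. The median of the 6 log2 fold changes was 0.54, where that of all genes was 0.00. The 6 genes were chosen with earlier results of these data known. Their ranks, non-overlap and median are thus a description and no support for a shift of the set. Without epidermis WT 1, the library with the high share of mitochondrial ribosomal RNA, the log2 fold changes were 1.04 for Scnn1g, 0.64 for Scnn1b and 0.66 for Sgk1, while that of Nr3c2 was 0.07.

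The 3 genes moved together within epidermis. Over its 7 libraries log2(CPM + 1) of Scnn1b correlated with that of Sgk1 at r = 0.95 and with that of Scnn1g at r = 0.91, and Scnn1g with Sgk1 at r = 0.91, a description of libraries that share 3 A-number ranges and 2 genotypes. Scnn1a followed them less, at r = 0.39 with Scnn1b and 0.38 with Scnn1g. The 3 genes were singled out by their split between genotypes in these same 7 libraries, and Scnn1a had no such split. High correlations among the 3 follow in part from that choice and are no separate support.

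Within A-number ranges the direction was as in the whole. In the A38x range, with 2 animals of each genotype, knockout over wild-type epidermis was a ratio of 2.78 for Scnn1g, 1.77 for Scnn1b and 1.83 for Sgk1, and in the A32x range, with 1 animal each, 2.04, 1.74 and 1.22 for the same genes. The A34x range held 1 knockout and no wild-type epidermis. A fit of the A38x libraries alone called these 3 genes higher in knockouts, Scnn1g by 1.47 (SE 0.19, edgeR adjusted p = 0.000426), Sgk1 by 0.86 (SE 0.17, edgeR adjusted p = 0.00993) and Scnn1b by 0.82 (SE 0.20, edgeR adjusted p = 0.0378), in a subset where 3.83% of 15760 genes passed. Scnn1a was at 0.04 there. With the range as a block, which keeps all 7 libraries, the 3 did not pass, at edgeR adjusted p = 0.211 for Scnn1g, 0.278 for Scnn1b and 0.316 for Sgk1. Sex was not balanced in epidermis, and its part in these differences was not tested.

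In tongue 2 of 15741 genes passed, or 0.0127%, and both were targeted proteases. None of the 6 members passed, and none had genotypes that did not overlap. Sgk1 had the largest log2 fold change, 0.58 (95% interval 0.12 to 1.04, edgeR adjusted p = 0.939), and ranked 117 by p. The others were 0.34 for Scnn1g (-1.58 to 2.26), 0.29 for Scnn1b (-0.26 to 0.85), 0.18 for Nedd4l (-0.08 to 0.44), 0.08 for Scnn1a (-0.89 to 1.04) and 0.03 for Nr3c2 (-0.26 to 0.33). Scnn1g had a log2 fold change of -0.69 when tongue KO 1 was left out and of 1.18 when tongue WT 1 was left out, so its value rests on those 2 A32x libraries.

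The knockout effect was not shown to differ between tissues for any member. The test of the difference, epidermis minus tongue, called 0% of 17935 genes, with 299 at an unadjusted p under 0.05 by edgeR and 1 call by DESeq2. The estimates were 0.90 for Scnn1g, 0.51 for Scnn1b, 0.30 for Scnn1a, 0.16 for Sgk1, 0.09 for Nedd4l and -0.37 for Nr3c2, each with an edgeR adjusted p of 1, and the interval for Sgk1 was -0.54 to 0.86. The 2 tissues of an animal are not independent, and the animal was also used as a block (a replicate block). Animals with 1 tissue add nothing to the difference in that fit, so its wild-type side rests on A383 and A384 alone, both A38x. The estimates of Scnn1a and Scnn1g then turned to -0.59 and -0.26, and that of Nr3c2 to 0.18.

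Sgk1 is a classic corticosteroid target, and 13 other corticosteroid-induced genes were examined beside it. None passed between genotypes in either tissue, while all 13 had a log2 fold change above 0 in epidermis (median 0.86, against 0.00 for all genes) and in tongue (median 0.43, against 0.01). In both tissues the highest levels were mostly those of 2 animals, the knockouts A386 and A387 (KO 3 and KO 4), and without them 9 of 13 were above 0 in epidermis (median 0.24) and 7 of 13 in tongue (median 0.03). Tsc22d3, the leucine zipper gene GILZ, had 11.2, 11, 147 and 75.1 CPM in knockout epidermis and 7.31, 9.44 and 10.3 CPM in wild-type epidermis. In tongue it had 87.0, 56.5, 181 and 206 CPM in knockouts and 91.3, 73.5, 71.2 and 70.8 CPM in wild type. Fkbp5, a chaperone of the glucocorticoid receptor, had 48.4, 40.7, 243 and 201 CPM in knockout epidermis and 27.8, 69.1 and 72.3 CPM in wild-type epidermis, and in tongue 29.3, 16.8, 110 and 75.3 CPM in knockouts and 27.3, 33.7, 33.0 and 34.6 CPM in wild type. A386 and A387 were the 2 highest libraries of the tissue for 10 of the 13 genes in epidermis and for 9 of 13 in tongue, where the same held for 10.9% of 15739 genes with a mean CPM of 1 or more in epidermis and for 10% in tongue. These 2 animals were singled out by the levels of these same genes, and the list was chosen with earlier results known. The counts are thus a description and no separate support.

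**Figure D5:**
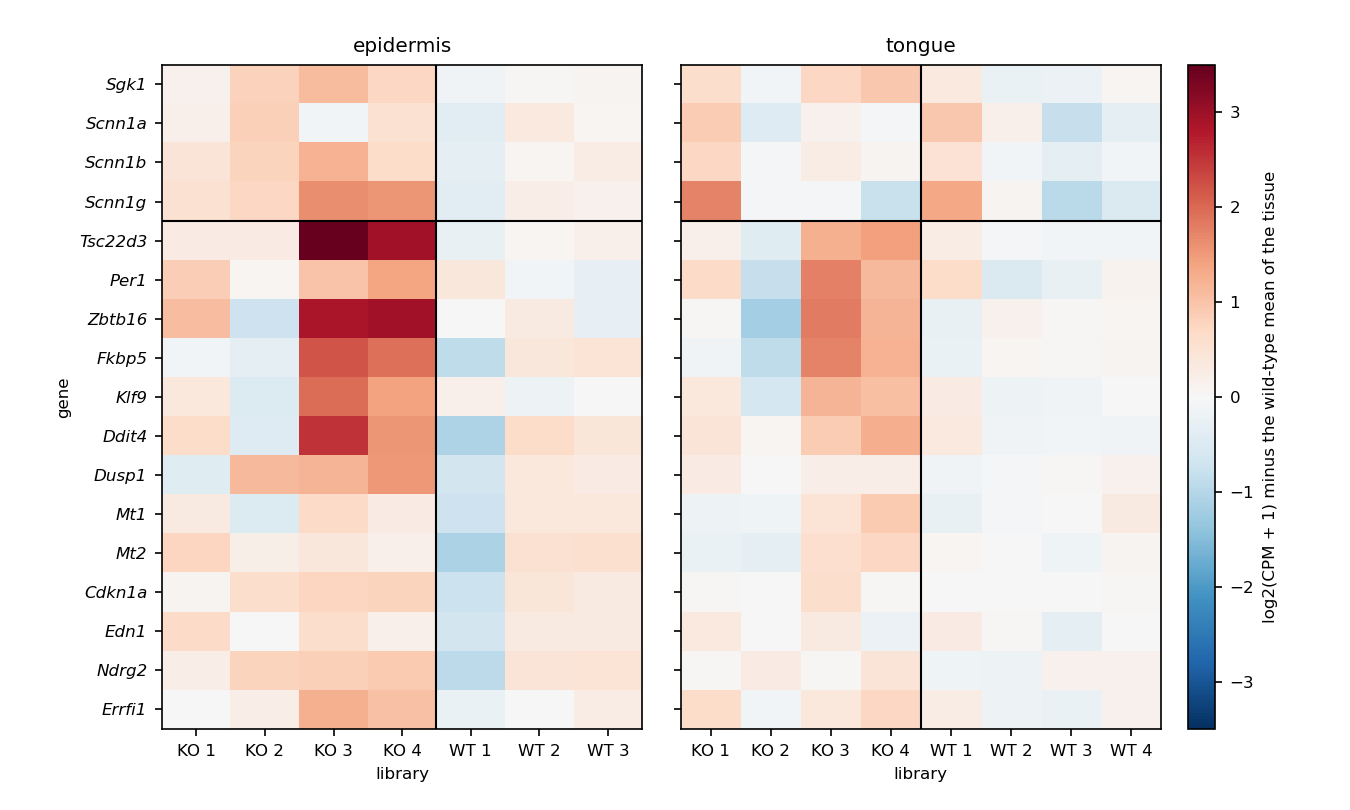
Color gives log2(CPM + 1) of a library minus the mean of the wild-type libraries of the same tissue, for Sgk1 and the channel subunits (top 4 rows) and for 13 corticosteroid-induced genes. Columns are libraries, knockouts left of wild type, red is above and blue below the wild-type mean, and KO 3 and KO 4 are the reddest for Tsc22d3, Zbtb16 and Fkbp5 in both tissues.

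Sgk1 and Scnn1g were high in the same 2 animals in part. In tongue KO 3 and KO 4 held the 2 highest levels of Sgk1, at 132 and 156 CPM, followed by KO 1 at 123. In epidermis KO 3 was highest at 89.0 CPM, but KO 2, in which Tsc22d3 was close to the wild-type level, followed at 72.8 CPM, above KO 4 at 68.4. For Scnn1g in epidermis KO 3 and KO 4 stood apart, while in tongue they did not, at 3.39 and 1.72 CPM. Without these 2 animals the log2 fold changes in epidermis were 0.60 for Scnn1g (95% interval -0.18 to 1.37), 0.56 for Scnn1b (-0.08 to 1.20) and 0.46 for Sgk1 (-0.16 to 1.08), and that of Sgk1 in tongue was 0.29 (-0.27 to 0.84). The value of Scnn1g without them was 0.60, against 1.22 with all animals. The A38x fit above compares the same 2 knockout animals with A383 and A384, so its 3 calls rest on them. The part of a corticosteroid response in these levels was not tested.

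The other genes of the pathway are given by list, to be read against the 63.6% of all genes tested that passed between the wild-type tissues and the 63.8% that passed between the knockout tissues. Of 14 serine proteases that cut ENaC and their inhibitors, 10 were tested in wild type, and 8 were higher in epidermis and 1 lower (median log2 fold change 1.99, against 0.03 for all genes). Tmprss13 had a log2 fold change of 2.56 (edgeR adjusted p = 1.8e-06) and Prss8, prostasin, of 2.40 (edgeR adjusted p = 2.0e-06). Serpine2, a secreted inhibitor also made by mesenchymal cells, was lower in epidermis by -4.52 (edgeR adjusted p = 1.6e-07). In knockouts 8 of 11 were higher and 2 lower (median 2.01, against 0.07 for all genes). The epithelium markers also summed higher in wild-type epidermis (3298 to 6204 CPM) than in wild-type tongue (752 to 876 CPM). The part of tissue makeup in the levels of these proteases and inhibitors was not tested. None of the 11 tested between genotypes in epidermis or of the 10 in tongue passed, and the 2 most abundant, Tmprss13 and Tmprss4, had log2 fold changes of 0.20 and 0.40 in epidermis and of 0.15 and 0.08 in tongue.

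Of 16 ligases, adaptors and deubiquitinases that act with Nedd4l, 8 were higher and 3 lower in wild-type epidermis than in wild-type tongue (median 0.37), and 7 were higher and 3 lower in knockouts (median 0.37), shares near the 63.6% and 63.8% of all genes. The smallest p-values in wild type were those of Ndfip2, an adaptor of the Nedd4 family (log2 fold change 1.27), the deubiquitinase Usp10 (1.31) and the ubiquitin hydrolase Uchl3 (1.34). Of 11 kinases and partner proteins tested, among them the TORC2 and PDK1 genes that activate Sgk1, 5 were higher and 2 lower in wild type (median 0.20). In knockouts 3 were higher and 2 lower (median -0.16), and the 2 shares lay near or below the same 63.6% and 63.8%. Among the 11 were Sgk3, a kinase of the same family (log2 fold change 0.86 in wild type), Wnk1 (0.68) and the scaffold Cnksr3 (-0.84). None of either list passed between genotypes: Nedd4 and Wnk1, the most abundant of each, had log2 fold changes of 0.20 and 0.07 in epidermis and -0.0016 and 0.17 in tongue.

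Of 8 corticosteroid receptor, enzyme and chaperone genes tested between wild-type tissues, 5 were lower in epidermis and 1 higher (median -0.61), and in knockouts 5 were lower and none higher (median -0.67), beside the background of 63.6% in wild type and 63.8% in knockouts that also applies to the next 2 lists. Hsd11b1, which regenerates active glucocorticoid, was lower by -5.83 in wild type (edgeR adjusted p = 7.6e-07), and H6pd, which supplies its cofactor, by -1.88. Of the 13 corticosteroid-induced genes 4 were higher and 5 lower in wild-type epidermis, and 2 higher and 4 lower in knockout epidermis, than in tongue. Of 6 Sgk1 substrates 3 were higher and 1 lower in both genotypes, with Gsk3b at 1.09 and Ndrg2 at -2.10 in wild type. None of these lists had a member that passed between genotypes. The acid-sensing channels, the nearest relatives of ENaC, were at 12 reads or fewer per library for the 3 found in the files (Asic1, Asic2, Asic3), and none was tested.

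The genes whose levels followed each member most closely over the 15 libraries were taken from 13578 genes by Pearson's r of log2(CPM + 1), as a description that the tissue difference enters. For Scnn1b they were Spint1 (r = 0.98), which encodes the protease inhibitor HAI-1, Zfp750 (0.98), a keratinocyte differentiation factor, and Slc30a1 (0.98), a zinc exporter. Within the 7 epidermis libraries these 3 had r = 0.85, 0.75 and 0.74, and within the 8 tongue libraries 0.92, 0.97 and 0.90. For Scnn1g they were Cyp4b1, Pon3 and Rbms1, at 0.95, 0.94 and 0.94 over all libraries, 0.96, 0.81 and 0.94 in epidermis and 0.92, 0.98 and 0.92 in tongue. For Scnn1a they were Foxn1, a transcription factor of hair and skin epithelium, and the polarity genes Llgl2 and Epb41l5, at 0.91, 0.91 and 0.90.

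For Sgk1 the closest genes were Ankra2 (r = 0.89), H13 (0.88) and Tsc22d3 (0.88). In the same order they had r = 0.83, 0.63 and 0.81 within epidermis and 0.71, 0.94 and 0.87 within tongue. For Nedd4l they were Nrip1 (0.91), Fam84a (0.87) and Khnyn (0.86). For Nr3c2 they were Sv2c (r = 0.998), Rps6ka2 (0.997) and Peg3 (0.996). Their r was 0.98, 0.96 and 0.88 within epidermis and 0.71, 0.62 and 0.74 within tongue, where the level of Nr3c2 hardly varied.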

How the data were processed

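RNA-seq counts of 15 libraries were analysed. The submitters' processing notes name the aligner STAR 2.5.2a, the build GRCm38.p3 (mm10), and DESeq2, edgeR and limma with no role. The counter and strand setting were not given in the sources used here. Strand was not kept as far as the labels' protocols say, so antisense reads cannot be told apart. The authors deposited counts per Ensembl gene, which were tested, and signal values, which on checking equalled each count over a constant of its library and served to look up symbols. Of 23422 entries, 2 transgene entries (0.00231% of reads) were left out.

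Each comparison was fitted with edgeR 4.0.16 in R 4.3.3 (filterByExpr with a minimum count of 10, TMM, robust quasi-likelihood F test, two-sided), with Benjamini-Hochberg adjustment over all genes tested and a threshold of 0.05. The fit was tested on simulated data. Intervals are at 95%. DESeq2 1.42.0 was an alternative. Lengths and coordinates came from GENCODE M21 on GRCm38. The members and gene lists were chosen with earlier results of these data known. Beside the members, the text names the 3 genes most correlated with each (mean CPM of 1 or more) and, from each list, up to 3 called genes or the 2 most abundant; a few others were named after their values were seen. One gene list is not reported here. Replicates are libraries of different animals by A-number, and the p-values measure only the spread between these samples.

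Deviations of same-numbered knockout and wild-type libraries correlated at r = 0.63, 0.14 and 0.52 in epidermis and at r from -0.16 to 0.60 in tongue. These libraries come from different animals, so the main fits between genotypes were not paired. The number was a block only in an alternative fit. Knockout epidermis and tongue are paired by animal, and the animal too was a block only in an alternative fit.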

Additional observations from a re-analysis of the deposited data

Results flagged for a closer look

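Scnn1g in knockout tongue was the 1 case, of 18 groups of 4 libraries checked over the 6 genes, in which 1 library stood far from the rest. KO 1 had 14.5 CPM where KO 2, KO 3 and KO 4 had 3.43, 3.39 and 1.72 CPM, and its gap to the nearest library was 0.866 of the range of the group, past the 95% critical value of Dixon's test. Chance alone flags about 1 in 20 such groups. The wild-type tongue library of the same A-number range, WT 1, was likewise the highest of its group at 10.8 CPM.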

How the results depend on the processing

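Of 264 fold changes of the 6 genes under alternatives other than leaving out 1 library, 241 kept their direction and side of the threshold, and of 270 with 1 library left out, 247. Of the numbers of genes called, 35 of 44 and 44 of 45 stayed within 1.5 times. Fits of A38x libraries alone have fewer samples. With the animal as a block, wild-type animals with 1 tissue add nothing between tissues, so the wild-type side again rests on A38x libraries. Where a value moved otherwise, the cause was not tested.

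Knockout against wild type called 1 gene in epidermis with DESeq2, with the range block and without the A32x libraries, and 604 with the A38x libraries alone, and in tongue 4 with DESeq2 and 15 with A38x alone. The difference between tissues called 1 with DESeq2, 19 with A38x alone and 1 with the range and its interaction. With A38x alone, epidermis called Scnn1b (0.82), Scnn1g (1.47) and Sgk1 (0.86) on the log2 scale, Nr3c2 in tongue turned to -0.21, and the difference between tissues turned to -0.62 for Scnn1a and -0.053 for Sgk1. Without A386 and A387, Nedd4l in epidermis turned to -0.095, and the difference between tissues to -0.33 for Scnn1g and -0.15 for Nedd4l.

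With the replicate number as a block, the calls between genotypes in epidermis stayed at 0, and the Nedd4l estimate there turned to -0.00086; the number in tongue changed no call. With the animal as a block, the difference between tissues turned to -0.59 for Scnn1a, -0.26 for Scnn1g and 0.18 for Nr3c2, and knockout epidermis against knockout tongue called 10153 genes with no change for the 6 members. Neither the replicate number nor the animal block in knockouts changed a member's call. The animal block in wild type, which kept only the A38x libraries, changed those of Scnn1a and Scnn1g, given next.

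Wild-type epidermis over tongue passed for Scnn1a at 1.43 and Scnn1g at 2.38 with A38x alone, and at 1.14 and 1.94 without A32x. With the animal as a block the values were 1.43 and 2.39, but that fit kept only the same 4 A38x libraries. In knockouts Sgk1 no longer passed without A32x (-0.62), nor Scnn1a (0.79), Scnn1g (0.57) and Sgk1 (-0.75) without A386 and A387. By coding length Scnn1b held 40.5% in knockout epidermis, and Scnn1a, Scnn1b and Scnn1g held 45.5%, 38.4% and 16.0% in wild-type epidermis. Scnn1a and Scnn1b held 59.9% and 23.6% in knockout tongue, and Scnn1a 62.5% in wild-type tongue.

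Leaving out 1 library gave 0 to 1 calls for the difference between tissues (1 without epidermis KO 1). Knockout over wild type then ran from -0.011 to 0.36 for Nedd4l and -0.72 to 0.075 for Nr3c2 in epidermis, and in tongue from -0.25 to 0.51 for Scnn1a, -0.69 to 1.18 for Scnn1g and -0.074 to 0.11 for Nr3c2. The difference ran from -0.13 to 0.64 for Scnn1a, -0.15 to 0.19 for Nedd4l, -0.014 to 0.31 for Sgk1 and -0.68 to 0.061 for Nr3c2. Epidermis over tongue ran from 0.29 to 0.96 for Scnn1a and 0.60 to 1.76 for Scnn1g in wild type, passing without tongue WT 1, and from 0.62 to 1.17 and 1.51 to 2.87 in knockouts.

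Depth limits Nr3c2 in epidermis, which rests on 11 to 33 reads per library, and with 3 wild-type epidermis libraries the intervals of all 6 genes were wide.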
